A study of Arabidopsis thaliana with 4 samples.

Results

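The 10 genes described here are Arabidopsis nuclear genes that encode subunits of photosystem I. They are PSAD1 (AT4G02770), PSAD2 (AT1G03130), PSAE1 (AT4G28750), PSAE2 (AT2G20260), PSAF (AT1G31330), PSAG (AT1G55670), PSAH2 (AT1G52230), PSAK (AT1G30380), PSAL (AT4G12800) and PSAN (AT5G64040), chosen by name. Earlier results of these data were known when the genes were chosen. Over the whole series, 28775 genes could be joined across the libraries. Of the 10 photosystem I genes, 8 had a matching locus in every library and were tested. PSAD2 had one in 1 library of each group, and PSAD1 had none.

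RNA immunoprecipitation with sequencing (RIP-seq) was used on crosslinked whole plants aged 3 weeks, with an anti-Myc antibody on material from washed nuclear pellets. The CLF RIP group held 2 libraries from clf-28/Myc-CLF plants, which carry Myc-tagged CURLY LEAF (CLF), the catalytic subunit of Polycomb repressive complex 2, in a clf-28 mutant background. The control RIP group held 2 libraries from wild type Col-0 plants, taken with the same antibody. All plants were of the Columbia ecotype and grew on sucrose medium in long days. No label names the promoter that drives Myc-CLF. The question put to these genes is whether their RNA was more or less abundant in CLF immunoprecipitates than in the mock ones. Libraries were grouped by their labels, which the names of the tables contradict. If the table names were right instead, each difference reported here would change sign.

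Photosystem I takes electrons from plastocyanin in the thylakoid lumen and passes them to ferredoxin in the stroma. Its reaction centre proteins are made in the chloroplast, while the subunits listed here are made in the cytosol from nuclear genes and imported. PSAD and PSAE form the ferredoxin side, PSAF and PSAN lie on the plastocyanin side, PSAG and PSAK sit at the edge that holds the antenna, and PSAH and PSAL sit at the edge where the mobile antenna docks.

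The deposited values are FPKM, a fragment count scaled by locus length and library size, with 1 value for each locus of a library. What 1 read was worth on loci of 75 bp gave the relative depth, and a fit of low values to whole reads gave its scale. The depth used for scaling was so estimated at 4.25 and 4.24 M fragments for CLF RIP, against 9.99 and 9.68 M for control RIP. A read was therefore worth 2.31 times as many FPKM in CLF RIP libraries as in control RIP libraries. Over 1054 genes whose values were whole reads, chi-square over degrees of freedom was 0.955 within the CLF RIP pair and 1.03 within the control RIP pair. That is no more than counting gives, and it was 2.54 to 2.58 between the groups. These genes had own identifiers and low counts, which most members did not, so the ratios do not cover the members. Between the CLF RIP libraries, PSAF differed 1.98-fold, PSAE2 1.95-fold and PSAG 1.02-fold. No label ties the 2 libraries of a group to separate plants, and the spread behind each p-value may therefore be technical. If each pair were 1 library sequenced again, no test could be made. The bait transcript, CLF, had 4.24 and 25.7 FPKM in CLF RIP, against 25.9 and 27.1 FPKM in control RIP, a spread that did not settle which groups the tables hold. Leaf mesophyll markers (2 of 3 matched in all libraries) summed to 466 and 407 FPKM in CLF RIP, against 1344 and 1325 FPKM in control RIP. Most of that sum was RBCS1A, a Rubisco small subunit gene, with 406 and 396 FPKM in CLF RIP, against 1308 and 1290 FPKM in control RIP. CA1, a carbonic anhydrase gene, had 59.7 and 10.8 FPKM in CLF RIP, against 35.9 and 35.5 FPKM in control RIP, so its groups overlapped. Root markers summed to between 8.23 and 9.97 FPKM in the 4 libraries, with 2 of 6 listed at 0 throughout. Flower markers (3 of 3 matched) summed to 5.85 and 9.12 FPKM in CLF RIP, against 19.1 and 35.96 FPKM in control RIP. The part of these differences in the results below was not tested. In whole-plant samples, fewer cells of a type and less RNA per cell cannot be told apart. Genotype and the tagged bait differ between the groups together, and the 4 libraries include no input. Capture by the antibody and transcript level therefore cannot be told apart either.

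All 8 tested photosystem I genes had a mean log2 value that was lower in the CLF RIP than in the control RIP, where 36.9% of all 14719 tested genes did. PSAG passed the threshold and fell (limma, Benjamini-Hochberg adjusted p under 0.05 over all tested genes), which is 1 of 8 members against 0.591% of all genes called lower. No member was called higher, against 0.741% of all genes. The other 7 members did not pass, with limma adjusted p of 0.0609 to 0.867, and 6 of the 8 had an unadjusted p under 0.05 in the lower direction, against 7.74% of all genes. Both CLF RIP values lay below both control RIP values for 6 of 8 members, which held for 18.9% of all genes. The members' median log2 fold change was -0.995 and that of all tested genes 0.25. Among the 2129 tested genes whose mean level lay in the members' range of 29.4 to 195 FPKM, the median was 0.23 and 40.4% lay below 0. Both CLF RIP values lay below both control RIP values for 24.8% of those 2129 genes. With 2 libraries against 2, an exact permutation test of one gene cannot give a two-sided p under 0.333.

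**Figure D1:**
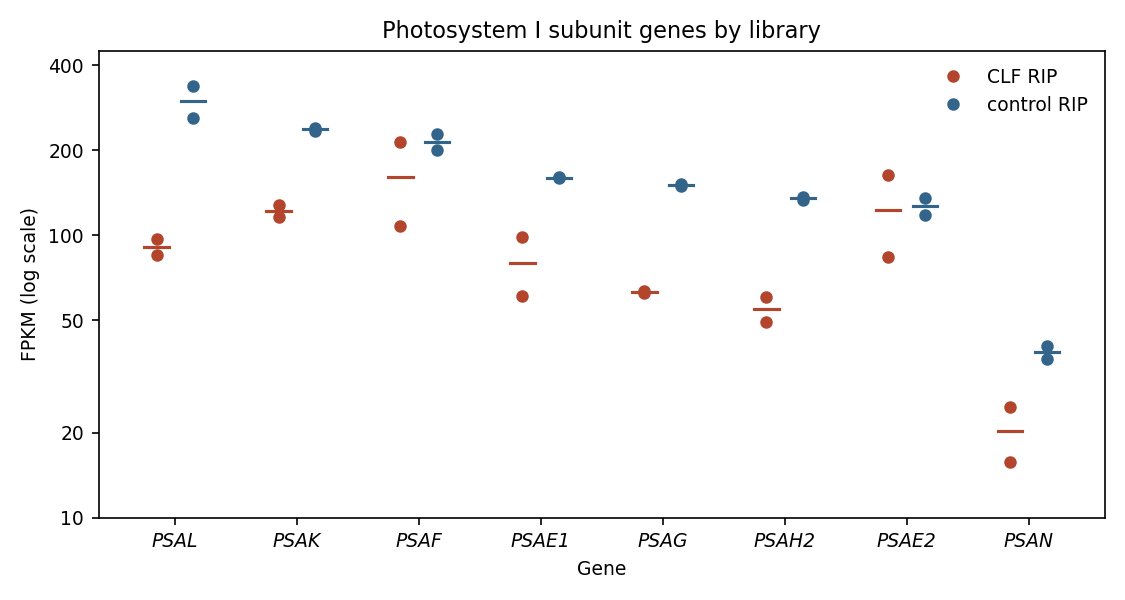
FPKM (log axis) of the 8 tested photosystem I genes in each library, with CLF RIP in red and control RIP in blue. Points are libraries and short lines are group means of 2 libraries. The groups overlap for PSAF and PSAE2, and PSAL is the highest of the 8 in the control RIP at 336 and 260.4 FPKM.

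On the antenna side, PSAG and PSAK each had lower values in both CLF RIP libraries, and PSAG passed the test. PSAG (AT1G55670), a membrane subunit that helps to hold the light-harvesting antenna, lies on chromosome 1 from 20802670 to 20803449 (TAIR10) and carried its own identifier in all 4 libraries. PSAG had 62.7 and 63.7 FPKM in CLF RIP, against 149.7 and 151.6 FPKM in control RIP. The groups did not overlap, and the libraries of a group differed 1.02-fold in CLF RIP and 1.01-fold in control RIP. PSAG fell by 1.24 on the log2 scale (SE 0.11, limma adjusted p = 0.046), a CLF RIP mean of 63.2 ± 0.704 FPKM against a control RIP mean of 150.6 ± 1.39 FPKM (SD, n = 2 each). For PSAG alone the values equalled whole reads within 0.1, at 153 and 155 reads in the CLF RIP and 858 and 842 reads in the control RIP. The 95% Poisson intervals of these counts correspond to 53.1 to 73.4 and 54.0 to 74.5 FPKM in the CLF RIP and to 139.8 to 160.02 and 141.6 to 162.2 FPKM in the control RIP, and cover counting error only. Each interval is wider than the gap between the libraries of its group. The call ended in 9 of 16 alternative settings, among them the replicate block and each of the 4 fits with 1 library left out, with limma adjusted p of 0.0503 to 0.426 in the 9, while the log2 fold change stayed between -1.67 and -1.19 over the alternatives.

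PSAK (AT1G30380), the membrane subunit at the opposite end of the antenna belt, lies on chromosome 1 from 10722197 to 10723247. PSAK had 116 and 128 FPKM in CLF RIP, against 234 and 240.5 FPKM in control RIP. Both CLF RIP values lay below both control RIP values, and the gap between groups was larger than the gap within either. The PSAK log2 fold change was -0.96 (SE 0.10), and it missed the threshold with a limma adjusted p of 0.0609. It passed under 4 of 15 alternatives, including quantile normalization (adjusted p = 0.0478 by limma) and median-of-ratios scaling (adjusted p = 0.0422 by limma).

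On the edge where the mobile antenna docks, PSAL had the largest log2 fold change of the 8 genes in size, and neither PSAL nor PSAH2 passed the test. PSAL (AT4G12800), a membrane subunit that links neighbouring small subunits, was matched on chromosome 4 from 7521322 to 7522670 in both control RIP libraries, and to 7522717 and 7522868 in the CLF RIP libraries. PSAL had 85.1 and 96.7 FPKM in CLF RIP, against 336 and 260.4 FPKM in control RIP. The groups lay far apart, while the control RIP libraries differed 1.29-fold. The PSAL log2 fold change was -1.70 (SE 0.17), with a limma adjusted p of 0.0631. Leaving out 1 control RIP library gave -1.51 (replicate 1 left out) or -1.88 (replicate 2 left out).

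PSAH2 (AT1G52230) encodes a copy of subunit H, the docking subunit for the mobile antenna. It was matched on chromosome 1 from 19454836 in all 4 libraries, with the far end between 19455769 and 19455804. PSAH2 had 49.5 and 60.3 FPKM in CLF RIP, against 137 and 133 FPKM in control RIP. Both CLF RIP values were the lower ones. The PSAH2 log2 fold change was -1.29 (SE 0.15), with a limma adjusted p of 0.0734. PSAH1, its near-identical copy, had no matching locus, and reads can be shared between the copies.

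**Figure D2:**
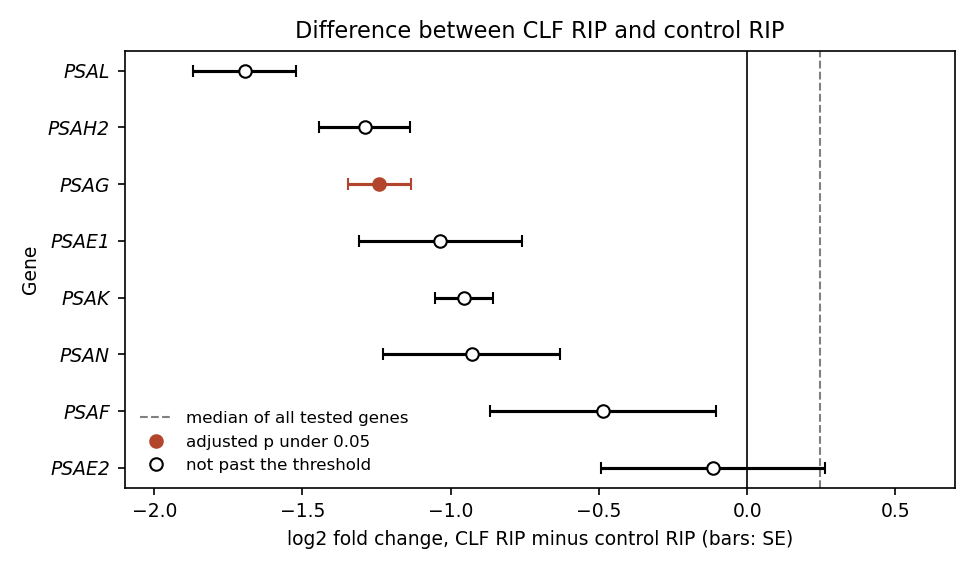
Log2 fold change (CLF RIP minus control RIP, on log2(FPKM + 1)) of the 8 tested photosystem I genes, with bars for the limma standard error. The filled red point, PSAG at -1.24, passed the adjusted threshold, the open points did not, and the dashed line marks the median of all tested genes at 0.25.

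On the plastocyanin side, the groups overlapped for PSAF and did not for PSAN, and neither gene passed the test. PSAF (AT1G31330), the subunit that binds plastocyanin, had 108 and 215 FPKM in CLF RIP, against 228 and 201 FPKM in control RIP. The second CLF RIP library lay between the control RIP values, so the groups overlapped, and the CLF RIP libraries differed 1.98-fold. The PSAF log2 fold change was -0.49 (SE 0.38, limma adjusted p = 0.475), and it became 0.0026 when CLF RIP replicate 1 was left out and -0.98 when the other one was. Its locus on chromosome 1, from 11214368 to 11216037 in CLF RIP replicate 1, ran past the annotated gene, with a reciprocal overlap of 80.2% to 84.4% in the 4 libraries. In control RIP replicate 1 a second locus of 393 bp inside it was listed at 116 FPKM, which no other library had.

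PSAN (AT5G64040), a small lumenal subunit, was the lowest of the 8 genes in every library. It was matched on chromosome 5 from 25628588 to 25629615 in 3 libraries and from 25628577 in CLF RIP replicate 2. PSAN had 15.7 and 24.8 FPKM in CLF RIP, against 40.5 and 36.6 FPKM in control RIP. The groups did not overlap, and the CLF RIP libraries differed 1.58-fold. The PSAN log2 fold change was -0.93 (SE 0.30), with a limma adjusted p of 0.191. Counted over the whole span, these values are at most 55 and 88 reads in the CLF RIP and 333 and 291 reads in the control RIP, because a spliced transcript is shorter than its locus.

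On the ferredoxin side, both CLF RIP values were lower for PSAE1 and the groups overlapped for its paralog PSAE2. Neither gene passed the test, and the difference between the copies was not tested. PSAE1 (AT4G28750) was matched on chromosome 4 from 14202622 to 14203961 in CLF RIP replicate 1. It had 61.0 and 98.6 FPKM in CLF RIP, against 160.2 and 159.8 FPKM in control RIP. Both CLF RIP values lay below the control RIP values, which were nearly equal. The PSAE1 log2 fold change was -1.04 (SE 0.27), with a limma adjusted p of 0.156. PSAE2 (AT2G20260), matched on chromosome 2 from 8736734 to 8737767, had 163 and 83.5 FPKM in CLF RIP, against 136 and 118 FPKM in control RIP. The CLF RIP values lay on either side of the control RIP values and differed 1.95-fold. The PSAE2 log2 fold change was -0.11 (SE 0.38, limma adjusted p = 0.867), and its sign turned to 0.36 without CLF RIP replicate 2. The ratio of PSAE1 to PSAE2 was 0.374 and 1.18 in CLF RIP, against 1.18 and 1.35 in control RIP, so CLF RIP replicate 1 stood apart from the other 3 libraries. Reads that fit both copies may have been counted for either, which leaves the level of each one uncertain.

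Both PSAE genes held a second, shorter locus wholly inside the matched one in all 4 libraries. The strand of these loci is not in the tables, so the reads cannot be assigned to an intron, another isoform or an antisense RNA. Inside PSAE2 the shorter locus, from 8737003 to 8737567 in CLF RIP replicate 1, had 85.3 and 53.3 FPKM in CLF RIP, against 23.2 and 19.4 FPKM in control RIP. Both CLF RIP values were the higher ones, opposite to most members. It reached 52.3% and 63.8% of the FPKM of the matched locus in CLF RIP, against 17.1% and 16.5% in control RIP. Inside PSAE1 the shorter locus had 22.8 and 22.6 FPKM in CLF RIP, against 30.3 and 30.0 FPKM in control RIP. Its CLF RIP values were the lower ones, as for PSAE1 itself. Inner loci were also added to the matched ones of the members, without weighting by length, a setting chosen after the data were seen. The log2 fold change was then -0.91 for PSAE1 and 0.32 for PSAE2, so the sign for PSAE2 turned. PSAF, with an inner locus in 1 library, moved from -0.49 to -0.78.

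**Figure D3:**
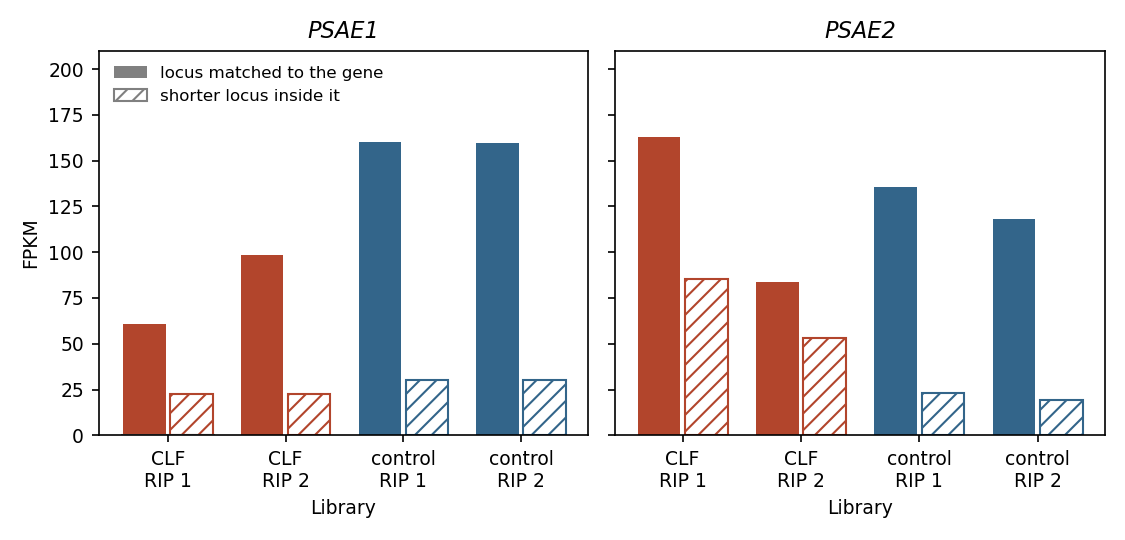
FPKM in each library of the locus matched to PSAE1 (left) and PSAE2 (right), as solid bars, and of the shorter locus inside it, as hatched bars, with CLF RIP in red and control RIP in blue. The PSAE2 inner locus stands at 85.3 and 53.3 FPKM in the CLF RIP, above 23.2 and 19.4 FPKM in the control RIP.

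The ferredoxin-docking subunit D has 2 genes, and neither could be measured on its own in all libraries. PSAD1 (AT4G02770) was covered over 80.7% of its span, in every library, by a locus of 5987 bp on chromosome 4, from 1223959 to 1229945, which also spans the neighbouring gene AT4G02760. That joint locus had 86.7 and 84.4 FPKM in CLF RIP, against 99.0 and 107 FPKM in control RIP. Both CLF RIP values were the lower ones, but they belong to 2 genes together, and in the fit over all genes this locus carried the name AT4G02760 (log2 fold change -0.26, limma adjusted p = 0.27). PSAD2 (AT1G03130) had a locus of its own at 74.2 FPKM in CLF RIP replicate 2 and at 85.2 FPKM in control RIP replicate 2, on chromosome 1 from 753132 to 754198 and from 753307 to 754198. In CLF RIP replicate 1 it lay in a locus of 4301 bp at 85.1 FPKM that also spans AT1G03140. In control RIP replicate 1 it lay in a locus of 5083 bp at 107 FPKM that spans 4 genes. With 1 library a group and unequal spans, no test was made for PSAD2.

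**Figure D4:**
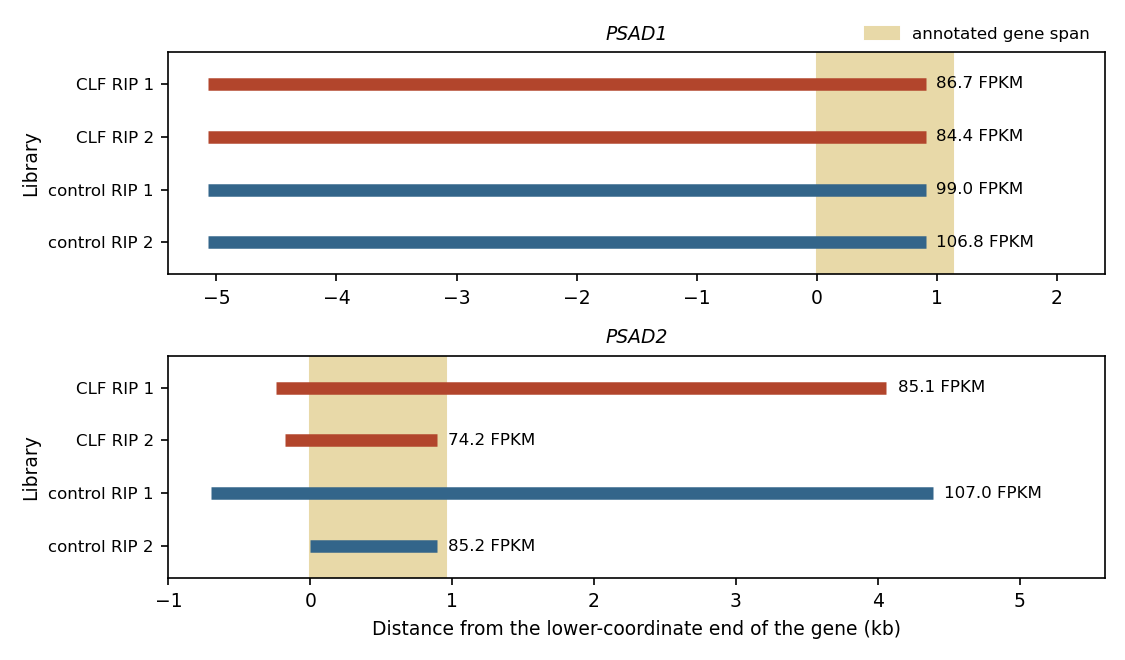
Loci of each library (CLF RIP red, control RIP blue) over PSAD1 and PSAD2, by distance in kb from the end of the gene with the lower coordinate, with the annotated gene shaded and the FPKM of each locus beside it. PSAD1 shares 1 longer locus with its neighbour in all 4 libraries, and PSAD2 has a locus of its own only in replicate 2 of each group.

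The 8 measured genes together summed to 661 and 770.5 FPKM in CLF RIP, against 1422 and 1301 FPKM in control RIP, a ratio of group means of 0.526. In the CLF RIP the means ran from PSAF (161 FPKM) through PSAE2 (123), PSAK (122), PSAL (90.9), PSAE1 (79.8), PSAG (63.2) and PSAH2 (54.9) down to PSAN (20.2). There the values of PSAE2 overlapped those of PSAF, PSAK, PSAL and PSAE1. PSAF also overlapped PSAK, and PSAE1 overlapped PSAL and PSAG. In the control RIP they ran from PSAL (298 FPKM) through PSAK (237), PSAF (215), PSAE1 (160.01), PSAG (150.6), PSAH2 (135) and PSAE2 (127) to PSAN (38.6). The overlapping neighbours there were PSAH2 and PSAE2. The difference between the orders was not tested. PSAL made up 12.9% and 12.5% of the summed level in CLF RIP, against 23.7% and 20.02% in control RIP. The share of PSAK was 17.5% and 16.7% in CLF RIP, against 16.5% and 18.5% in control RIP, and the groups overlapped. PSAE2 took 24.7% and 10.8% in CLF RIP, against 9.53% and 9.07% in control RIP, so its share was high in CLF RIP replicate 1.

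The other proteins of photosystem I were set beside these genes. All 6 genes of the antenna proteins of photosystem I (LHCA1 to LHCA6) had log2 fold changes below 0, against 36.9% of all genes. Their median was -0.85, and 1 of 6 was called lower, against 0.591% of all genes. Both CLF RIP values lay below both control RIP values for 5 of the 6, against 18.9% of all genes. LHCA1 had 114 and 101 FPKM in CLF RIP, against 297 and 293 FPKM in control RIP (log2 fold change -1.45, SE 0.10, limma adjusted p = 0.0392). The call for LHCA1 ended in 7 of 14 alternatives, among them each of the 4 fits with 1 library left out (limma adjusted p of 0.0727 to 0.426). LHCA4 had 139 and 130.03 FPKM in CLF RIP, against 260.04 and 251 FPKM in control RIP (limma adjusted p = 0.0503). PSAO, a subunit near PSAL, had 98.1 and 96.6 FPKM in CLF RIP, against 550.2 FPKM in control RIP replicate 2, and had no matching locus in control RIP replicate 1. AT2G46820, once named PSAP and now known as CURT1B, which bends thylakoid membranes, had 49.03 and 35.1 FPKM in CLF RIP, against 57.6 and 62.1 FPKM in control RIP (limma adjusted p = 0.277). The plastid genes psaA, psaB, psaC, psaI and psaJ were listed at 0 in all 4 libraries, as were all 130 plastid and 141 mitochondrial loci, so they gave no level.

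Genes that build photosystem I or carry electrons to and from it had medians closer to 0, a difference that was not tested. Of 7 listed assembly factors 6 were tested and 0 passed in limma, and the median log2 fold change was -0.25. Of the 6, 5 lay below 0 and 1 above, against 36.9% of all genes below 0. Of these, 0 had an unadjusted p under 0.05, against 24.7% of all genes in either direction. Both CLF RIP values lay below both control RIP values for 3 of these 6 factors, against 18.9% of all genes. ALB3, which inserts proteins into the thylakoid membrane, had 38.2 and 34.7 FPKM in CLF RIP, against 40.04 and 41.9 FPKM in control RIP. PSA2 had 28.4 and 22.5 FPKM in CLF RIP, against 16.0 and 26.3 FPKM in control RIP, so its groups overlapped. Of 10 listed electron carriers and their partners 6 were tested and 0 passed in limma. All 6 lay below 0, against 36.9% of all genes, and the median was -0.29. Of the 6, 1 had an unadjusted p under 0.05, against 24.7% of all genes in either direction. LFNR2, a ferredoxin-NADP reductase, had 53.8 and 57.8 FPKM in CLF RIP, against 52.5 and 77.5 FPKM in control RIP. PETC, the Rieske protein of the cytochrome b6f complex, had 58.8 and 23.2 FPKM in CLF RIP, against 57.0 and 37.5 FPKM in control RIP. Both pairs of groups overlapped, while 3 of the 6 genes had both CLF RIP values below both control RIP values, against 18.9% of all genes. The gene with the unadjusted p under 0.05, named after its values were seen, was PGR5, which acts in cyclic electron flow. PGR5 had 4.60 and 8.81 FPKM in CLF RIP, against 14.6 and 15.5 FPKM in control RIP (log2 fold change -1.11, limma adjusted p = 0.192).

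Of 11 listed nuclear genes of photosystem II 4 were tested, with a median of -0.80. Of the 4, 1 was called lower, against 0.591% of all genes. All 4 had both CLF RIP values below both control RIP values, against 18.9% of all genes. PSBR had 158 and 155 FPKM in CLF RIP, against 276 and 284 FPKM in control RIP (log2 fold change -0.83, SE 0.07, limma adjusted p = 0.0472). The call for PSBR ended in 10 of 15 alternatives, again with each library left out (limma adjusted p of 0.0524 to 0.426). PSBW had 80.5 and 70.5 FPKM in CLF RIP, against 132 and 125 FPKM in control RIP (limma adjusted p = 0.102). Regulators of photosynthesis genes had a median of 0.47 over 5 tested of 9 listed, and 0 passed in limma. Of the 5, 1 had an unadjusted p under 0.05, against 24.7% of all genes in either direction. Both CLF RIP values were the lower ones for 1 and the higher ones for 2, against 18.9% and 40.4% of all genes. GLK1 and GLK2 encode transcription factors that activate photosynthesis genes. GLK1 had 37.8 and 61.7 FPKM in CLF RIP, against 28.5 and 30.7 FPKM in control RIP (limma adjusted p = 0.275), and GLK2 had 45.1 and 96.1 FPKM in CLF RIP, against 45.9 and 48.8 FPKM in control RIP (limma adjusted p = 0.533). The gene with the unadjusted p under 0.05, also named after its values were seen, was PIF1, which encodes a phytochrome-interacting transcription factor, with 16.3 and 12.1 FPKM in CLF RIP, against 3.90 and 4.53 FPKM in control RIP (limma adjusted p = 0.0987). Of 10 reference mRNAs all 9 tested lay below 0, against 36.9% of all genes, with a median of -0.23. Among the 9, 0 passed in limma and 1 had an unadjusted p under 0.05, against 24.7% of all genes in either direction. Both CLF RIP values were the lower ones for 4 of the 9, against 18.9% of all genes. UBQ10 had 507 and 470.3 FPKM in CLF RIP, against 539 and 477 FPKM in control RIP, and UBC9 had 59.1 and 82.7 FPKM in CLF RIP, against 106 and 381 FPKM in control RIP. The differences between these lists were not tested.

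**Figure D5:**
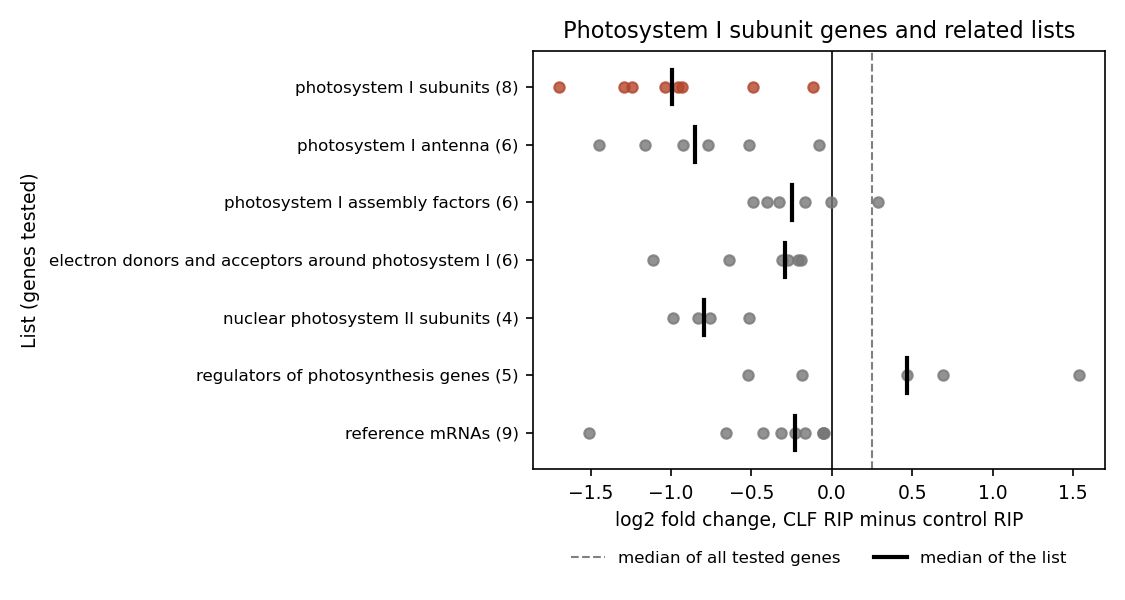
Log2 fold change (CLF RIP minus control RIP) of each tested gene in the photosystem I subunit list (red) and in related lists (grey), with the number tested in brackets. Thick bars are list medians (-0.995 for photosystem I subunits, -0.85 for its antenna, -0.80 for photosystem II subunits), and the dashed line is the median of all tested genes at 0.25.

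Among 2056 other genes at or above the level of the lowest member, the 5 with the centred log2 profile nearest to the members' mean over the 4 libraries were AT5G03380, AT2G43150, AT1G51805, LHCB6 and AT5G02960. Their Euclidean distances were 0.0966 to 0.111 on the log2 scale, against 0.125 for PSAK, the nearest member, and 1.21 for PSAE2, the farthest. LHCB6, a minor antenna protein of photosystem II, had 38.2 and 42.6 FPKM in CLF RIP, against 79.8 and 80.4 FPKM in control RIP. The protein-coding genes next to the 10 members on their chromosomes were set beside them. Of 20 such neighbours 11 were tested, with a median of 0.08. Of the 11, 5 had a log2 fold change below 0 and 6 above, against 36.9% of all genes below 0. Among them 0 passed in limma and 1 had an unadjusted p under 0.05, against 24.7% of all genes in either direction. AT4G02760 is among the 11 with the locus that also spans PSAD1.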

How the data were processed

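The deposited tables give FPKM for loci. Trimmomatic, TopHat2 2.0.10 and TAIR10 are named in the submitters' processing notes. The software that assembled the loci and computed FPKM from the reads is not stated in the labels or tables. No column was left out.

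A locus is named by a gene or by a serial number that holds within 1 library. A gene took the locus with its own identifier, or else the 1 locus with at least 80% reciprocal overlap and a gene span of at least 300 bp. Spans came from own identifiers, and otherwise from RefSeq TAIR10.1, which held 21363 of 21777 such identifiers, 85.6% of them with a span alike by the same overlap. Of the members' loci, 5 matched by identifier and 29 by overlap. Serial loci at or above the value of 1 read on 75 bp were left out.

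The test used limma 3.58.1 in R 4.3.3 (trend and robust prior) on log2(FPKM + 1), for 14719 genes that reached 1 FPKM in 2 or more libraries. P-values were adjusted by Benjamini-Hochberg over these genes, with 0.05 as the threshold. The pseudocount makes fold changes of low genes smaller. Simulated data were used to check the fit. The scaling depth was fitted so that the lowest values became 1 read, and whole reads for the comparison of libraries were within 0.08. Under that fit 50.6% to 52.4% of the low values of a library were whole reads within 0.1.

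Named genes were the 10 members, list genes past the threshold or else the 2 most abundant, and the 5 nearest profiles. LHCA2, LHCA3, LHCA5 and LHCA6 were counted only. Members and lists were chosen with earlier results of these data known. Tables and plots were made with pandas 2.3.3, matplotlib 3.10.9, numpy 2.4.6 and scipy 1.17.1 under Python 3.11.15.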

Additional observations from a re-analysis of the deposited data

Results flagged for a closer look

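The shorter locus inside PSAE2 was outside the comparison of genes and had values above the control level, with 85.3 and 53.3 FPKM in CLF RIP, against 23.2 and 19.4 FPKM in control RIP. The ratio of group means was 3.25. This difference was not tested, and the strand of the locus is not in the table.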

How the results depend on the processing

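The count of 1 photosystem I gene called lower by limma was 0 at pseudocounts of 0.1 and 5, without a filter, and without the trend and robust prior, with 6 members at an unadjusted p under 0.05 in each, and 0 with the replicate block, with 5. Over all genes an unadjusted limma p under 0.05 was reached by 3603 and 3572 of 14719 at those pseudocounts and by 2694 with the replicate block. The number was 4188 of 20430 without a filter and 3722 of 14719 without the trend and robust prior. Among all genes, 0.766% were called lower when structural RNA and organelle genes were left out, and 0.849% with median-of-ratios scaling. That share was 0.754% with quantile normalization and 0.928% with a filter of at least 5 FPKM. The count of members called lower was 4, 3, 2 and 2 in those settings, in the same order. Without each library in turn it was 0 to 0, with 4 to 7 at an unadjusted p under 0.05. No setting called a member higher.

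Over all genes, 87 were lower and 109 higher. The counts were 41 and 42 at a pseudocount of 5, 3 and 4 without a filter, 26 and 38 without the trend and robust prior, 204 and 284 with own identifiers only, and 0 and 0 with the replicate block, where 2694 had an unadjusted p under 0.05. Leaving out 1 library gave 0 to 4 lower and 0 to 1 higher, with 1629 to 3540 at an unadjusted p under 0.05. With structural RNA genes left out, 64 were higher. Higher genes made up 55.6% of the calls on the values as deposited, with a median of all genes of 0.25. Rescaling without structural RNA and organelle genes gave 36.2% and a median of -0.12, median-of-ratios scaling gave 42.7% and 0.01, and quantile normalization gave 45.3% and 0.02.

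The members' median of -0.995 was -1.43, -1.28 and -1.27 under those 3 scalings in the same order, -1.24 with own identifiers only (PSAG alone), and -1.25 to -0.79 when a library was left out. Relative to the median of all genes it was -1.24 as deposited and -1.29 to -1.31 under the scalings. PSAE2 turned to 0.36 without CLF RIP replicate 2 and to 0.32 with inner loci added, and PSAF to 0.0026 without CLF RIP replicate 1. For PSAF the range over left-out libraries was -0.98 to 0.0026 and for PSAE2 -0.59 to 0.36. The other 6 members kept their sign in every setting that held them. The cause of these shifts was not tested. The replicate numbers are shared by the groups, and differences between replicates 1 and 2 correlated at 0.020 over genes between the groups. Counting error can hide a shared batch in such a correlation, so it cannot show whether the numbers pair the libraries. At 90% overlap 3 members remained testable, and the promoter motifs were not run for lack of sequences here.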

Other observations

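A locus of 75 bp at the upper end of PSAL, on chromosome 4 from 7522723 to 7522797, was listed at 25693 FPKM in CLF RIP replicate 1, which is the value of 1 read. It is not part of the PSAL values above. In CLF RIP replicate 1 a locus of 241 bp on chromosome 1, from 20802462 to 20802702, covered 4.23% of the PSAG span. That locus was listed at 111 FPKM and is not part of the PSAG values. A read is worth more FPKM on so short a locus than on the PSAG span, so these levels do not compare read counts. Neighbouring loci that reach into the span of PSAN, from 25624037 upward on chromosome 5, had 18.5 and 25.4 FPKM in CLF RIP, against 23.6 and 17.7 FPKM in control RIP, so those groups overlapped where the PSAN values did not.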
